A study of Homo sapiens with 9 samples.

Results

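The 46 genes described here encode proteins that build the mitotic spindle, attach chromosomes to it, compact and separate the chromosomes, and divide the cell. They were taken by symbol from the 19930 genes with values in the deposited expression table, by a rule that uses no measured value, though the set was proposed with earlier results of these data known, and all 46 were found. By role they were sorted into 8 mitotic kinases, 5 genes for cyclins and the phosphatase CDC25C, 7 kinetochore and centromere genes, 6 genes of the spindle checkpoint, the anaphase-promoting complex (APC/C) and separase, 3 chromosomal passenger subunits, 5 kinesin motors, 6 spindle and cytokinesis proteins, and 6 genes for condensin I and topoisomerase II alpha. The measurement was RNA sequencing of libraries labelled MDA-MB-453, an established line of human breast cancer, collected 48 h after Lipofectamine 2000 transfection. Of the 3 groups, 2 were labelled as Linc00673 knockdown (X453_1 and X453_2) and 1 as control (X453_NC), with 3 libraries in each, named without a suffix, r1 and r2 and given below in that order. The labels do not name the siRNA of each group. The study lists 2 siRNAs against this long noncoding RNA, and the group numbers were taken to follow theirs. The study speaks in general of independent experiments, but neither it nor the labels say that the 3 sequenced libraries of a group came from separate cultures, so the P values may measure only the spread between these libraries, which may be technical. The row of the targeted RNA was not analysed here, so the knockdown itself was not checked.

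Mitotic genes are transcribed in a wave that climbs through G2 and peaks near mitosis, and many of their products are destroyed as the cell exits division. CDK1 bound to cyclin B starts mitosis, the kinases of the Aurora, Polo, NEK and MPS1 families order the steps that follow, and the kinetochore holds chromosomes on the microtubules until the spindle checkpoint lets the APC/C activate separase. In proliferating tumour cells this set is often used as a readout of the dividing fraction. In a culture sequenced in bulk, fewer cells in G2 and mitosis and less RNA per dividing cell cannot be told apart.

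The estimated depth was 23.1 to 27.6 M fragments per library (X453_1 24.9 to 26.0, X453_2 23.1 to 25.1, X453_NC 26.1 to 27.6 M). Of the luminal markers fixed for the labelled line, the keratins KRT8 (3011 to 3773 FPKM, fragments per kilobase of transcript per M mapped fragments), KRT18 (1680 to 2509) and KRT19 (1044 to 1293) were high, and XBP1 (63.6 to 89.5), FGFR4 (17.9 to 33.1) and ERBB2 (11.8 to 17.8) were expressed. FOXA1, a transcription factor of luminal breast cells, was at or near 0 (at most 0.04 FPKM), the luminal factor GATA3 was at 0.41 to 0.88 FPKM and SPDEF at 0.57 to 1.24 FPKM. The last 3, also markers of the labelled line, were therefore absent or low in all 9 libraries. Of the markers of other cell types, COL1A1 (3.49 to 7.08 FPKM) and ACTA2 (0.77 to 1.59) were detected, KRT5 was at 0.35 to 0.63, and PTPRC, PECAM1, COL3A1, KRT14 and ESR1 were at most 0.25 FPKM.

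Many genes of this kind share a short promoter element, the cell cycle genes homology region (CHR, letters TTTGAA), which MuvB complexes bind, and a CCAAT box, which NF-Y binds. Promoter windows from 250 bases before to 50 bases after the gene start were found in RefSeq (GRCh38.p14) for 40 of the 46 members. Searched on both strands, TTTGAA was present in the windows of 29 of these 40 genes (72.5%), against 1176 of the 8967 tested genes with a window (13.1%) and 15.2% of all 35116 windows. CCAAT was present for 31 of the 40 (77.5%), against 43.1% of tested genes and 34.6% of all windows, and both motifs were present for 22 of the 40 (55.0%), against 7.2% of tested genes. Among member windows with a CHR match, 87.9% had one in the last 100 bases before the start or after it, compared with 42.7% for tested genes. The 120 bases before the start of 7 members show the element in genes that differed in behaviour below: CCNF, CENPA, KIF23 and PLK1 were called lower in X453_2, BUB1B differed between the knockdown groups, and CCNB2 and ANLN were called in no comparison. Capitals mark TTTGAA and CCAAT or their reverse complements.
CCNF (chr16:2429327-2429446, forward strand): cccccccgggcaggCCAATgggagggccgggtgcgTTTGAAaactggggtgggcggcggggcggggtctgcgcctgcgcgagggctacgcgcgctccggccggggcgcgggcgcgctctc
CENPA (chr2:26785936-26786055, forward strand): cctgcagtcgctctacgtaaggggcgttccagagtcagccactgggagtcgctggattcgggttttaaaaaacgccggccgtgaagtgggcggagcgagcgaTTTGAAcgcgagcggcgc
KIF23 (chr15:69414229-69414348, forward strand): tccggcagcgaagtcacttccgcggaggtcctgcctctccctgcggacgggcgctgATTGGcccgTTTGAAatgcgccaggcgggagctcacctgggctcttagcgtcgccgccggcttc
PLK1 (chr16:23678769-23678888, forward strand): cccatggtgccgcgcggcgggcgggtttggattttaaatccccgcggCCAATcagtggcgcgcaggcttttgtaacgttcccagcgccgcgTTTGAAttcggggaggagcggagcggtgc
BUB1B (chr15:40160949-40161068, forward strand): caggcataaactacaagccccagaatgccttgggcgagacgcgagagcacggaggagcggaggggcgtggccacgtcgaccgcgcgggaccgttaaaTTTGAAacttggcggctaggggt
CCNB2 (chr15:59105026-59105145, forward strand): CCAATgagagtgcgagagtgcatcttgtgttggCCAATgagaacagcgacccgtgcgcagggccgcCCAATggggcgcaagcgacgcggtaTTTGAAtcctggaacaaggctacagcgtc
ANLN (chr7:36389742-36389861, forward strand): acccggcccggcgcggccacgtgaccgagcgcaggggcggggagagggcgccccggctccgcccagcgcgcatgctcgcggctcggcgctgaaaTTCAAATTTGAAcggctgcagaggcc

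**Figure D1:**
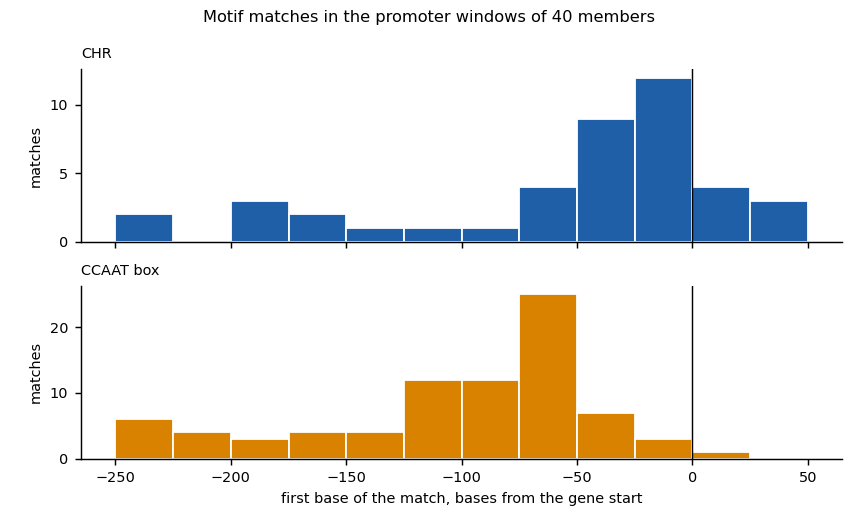
Number of matches (vertical axis) to the CHR (top) and the CCAAT box (bottom) by the distance of their first base from the gene start in bases (horizontal axis), over the promoter windows of 40 members, where a gene with several starts has several windows. Of the member windows with a CHR match, 87.9% had one at or after 100 bases before the start, and 77.8% did so for the CCAAT box.

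In the control libraries the members spanned a 56.9-fold range of FPKM. The ubiquitin-conjugating enzyme of the APC/C, UBE2C, was highest (192 ± 7.38 FPKM, SD, n = 3), followed by the securin PTTG1 (173 ± 8.82), TOP2A (137 ± 6.74) and CDK1 (129 ± 3.39). The kinesin CENPE was lowest (3.37 ± 0.196 FPKM), and CDC25C, SPC24, NCAPH and SPC25 were the other members under 10 FPKM. The median member was at 32.6 FPKM. Replicates were close, with a median coefficient of variation of 3.33% over members and groups. The largest was 24.1%, for CENPE in X453_1, where the r1 library was at 1.78 and the others at 2.82 and 2.80 FPKM. The least covered member, CDC25C, rested on an estimated 245 fragments in its lowest library, for which counting error alone was 6.4%.

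In X453_1 all members but CDC25C were within the limits set for a call against control, whereas 12 members were called lower in X453_2 and none was called higher in either group. A call needed a fold change of 1.3 or more and a limma P value of 0.05 or less after Benjamini-Hochberg adjustment, on log2(FPKM + 1) over the 12884 genes that averaged 1 FPKM or more. In X453_1, 1 of 46 members was called lower and 0 higher, against 15.5% lower and 11.0% higher over all tested genes. In X453_2, 12 of 46 (26.1%) were called lower and 0 higher, against 23.0% and 10.9% over all tested genes, so the share called lower was near that of the transcriptome and no member joined the genes called higher. The median log2 fold change of the members was 0.015 in X453_1 (range -0.45 to 0.31), where that of all tested genes was 0.0032, and -0.24 in X453_2 (range -0.91 to 0.26), where that of all tested genes was -0.095. Both comparisons share the control libraries. With an unadjusted P in place of the adjusted one the counts were again 1 and 12, with 0 higher. The single call in X453_1 was CDC25C, and the count there rose to 3 without X453_1 replicate r2 (with CENPF and CENPE) or X453_NC replicate r0 (with CENPA and CENPF) and to 4 after GC correction (with all 3).

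By adjusted P alone, with no limit on the fold, the pattern had more members and both signs. In X453_1 16 members were higher and 10 lower than control, against 32.1% and 32.3% of all tested genes. In X453_2 7 were higher and 32 lower, against 26.0% and 44.8%. Between the knockdown groups 2 were higher and 33 lower in X453_2, against 10.2% and 33.9%. In sign alone, 20 members were below control in both knockdown groups, 16 above it in X453_1 and below it in X453_2, 9 above it in both and 1, ZWINT, below it in X453_1 and above it in X453_2.

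The X453_2 libraries carried a shift of the whole transcriptome that touches these counts. When FPKM were rescaled by the median ratio of expressed genes, 8 members remained called lower in X453_2 of the 12, the members' median was -0.14, and 17.3% of all genes were called lower. The lower share of all calls in X453_2 went from 67.8% as deposited to 53.2% after this scaling, and to 51.1% and 51.4% after correction for GC content and transcript length. The 8 members still called under each of these 3 settings were CENPF, CCNF, AURKA, CENPA, CDC25C, KIF20A, CENPE and KIF23. With the GC and length corrections 15.2% and 16.7% of all tested genes were called lower. A count of 8 of 46 members lay near the share of all genes under each of the 3. PLK1, TTK, NUF2 and CDCA8 were no longer past the 1.3-fold limit under any of them.

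**Figure D2:**
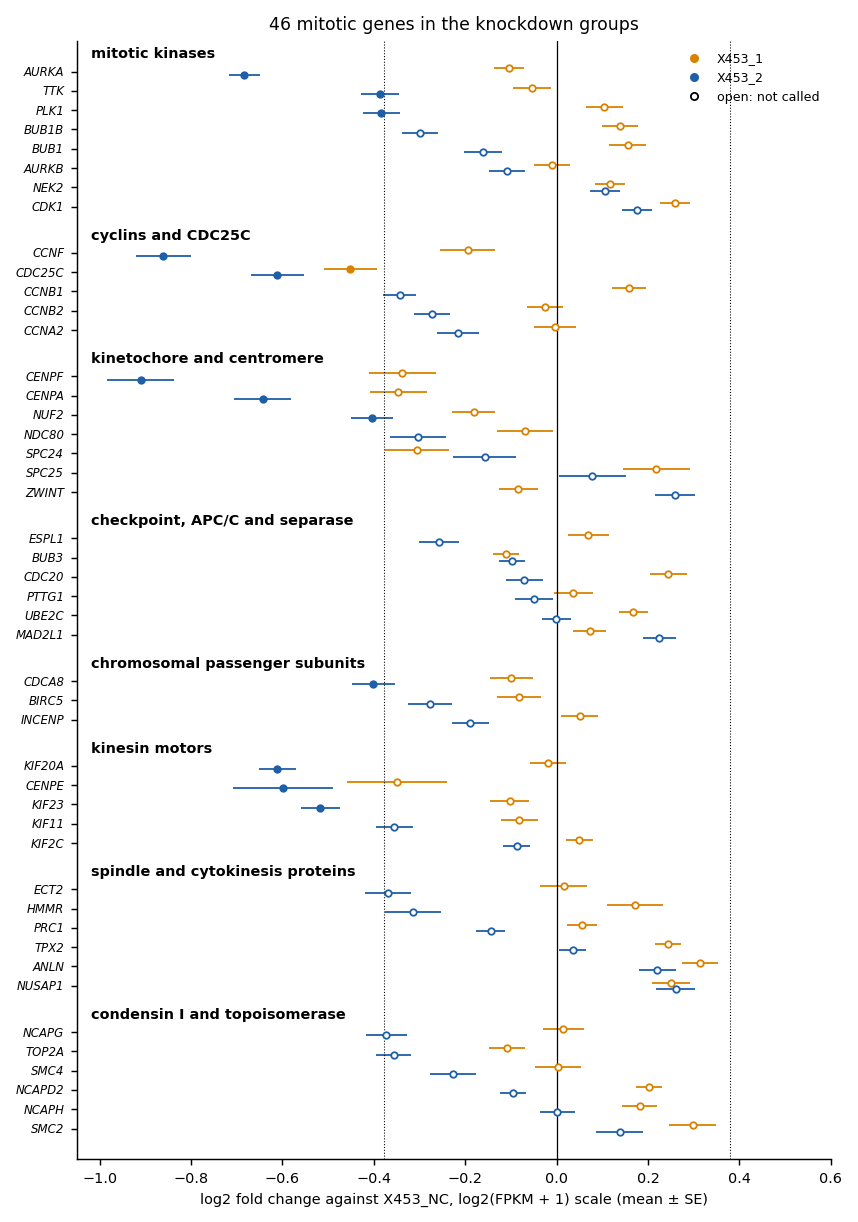
Log2 fold change of each of the 46 members against X453_NC (horizontal axis, log2(FPKM + 1) scale, mean ± SE of the limma fit) for X453_1 (orange) and X453_2 (blue), with 1 member per line grouped by role; filled points were called and dotted lines mark the 1.3-fold limit. CENPF, CCNF and AURKA lie furthest to the left in X453_2, and CDC25C alone is filled in both groups.

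Direct comparison of the knockdown groups, the test of whether they differ, found 11 members lower in X453_2 than in X453_1 and 0 higher. This was 23.9% of the members, where 5.32% of all tested genes were called lower and 2.06% higher. The members' median difference was -0.24, against -0.081 for all genes, and the log2 fold change was below 0 for 41 of 46. The X453_2 and X453_1 libraries did not overlap for 39 members, against 53.7% of all tested genes. In the comparisons with control the groups did not overlap for 29 members in X453_1 (70.0% of all genes) and for 39 in X453_2 (73.0%). After median-ratio scaling the members called lower in X453_2 than in X453_1 numbered 7 and the kinetochore gene ZWINT was called higher, with 2.37% of all genes called lower. The lower share of all calls in this comparison went from 72.0% to 38.0% with the scaling, and to 46.4% and 50.0% with the GC and length corrections. CCNF, KIF20A, AURKA, CENPF, CCNB1 and PLK1 stayed called under all 3 of these settings. With the GC and length corrections 6 and 7 members were called lower, against 2.35% and 2.56% of all tested genes.

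**Figure D3:**
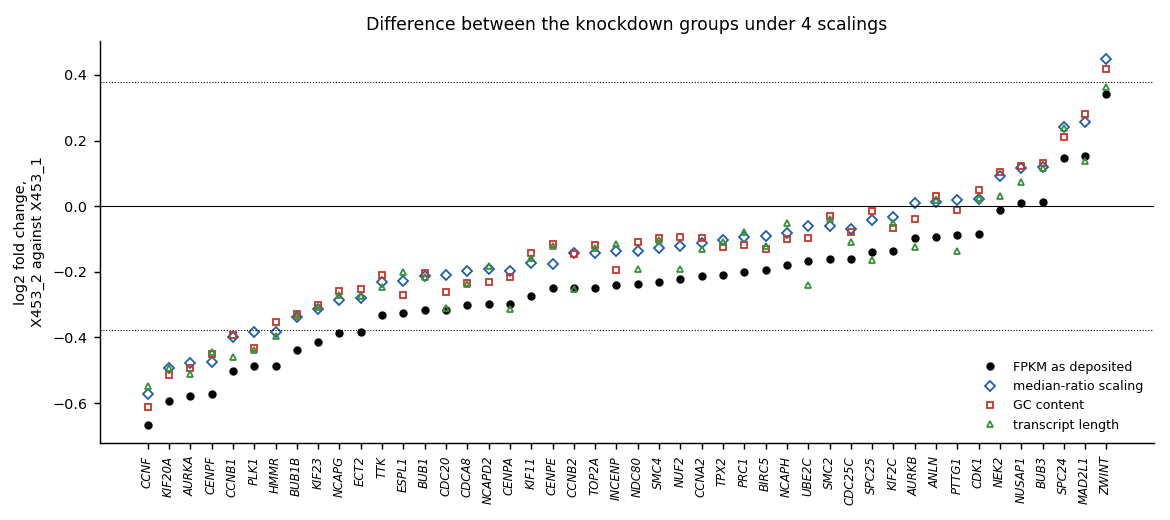
Log2 fold change of X453_2 against X453_1 (vertical axis) for the 46 members in order of size, from FPKM as deposited (black) and after median-ratio scaling (blue), GC correction (red) or length correction (green); dotted lines mark the 1.3-fold limit. CCNF is lowest under each, and ZWINT passes the upper limit after median-ratio scaling and GC correction.

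Both tests together called 17 members lower in X453_2: 6 against control and against X453_1, 6 against control alone, and 5 against X453_1 alone. The share of all tested genes called by both tests, or by either, was not counted. Both tests use the X453_2 libraries, so their calls are not independent. The 6 called in both were AURKA, PLK1, CCNF, CENPF, KIF20A and KIF23. In the table's GRCh37 coordinates, CENPF (gene 1063) spans chr1:214776532-214837914 and CCNF (gene 899) chr16:2479392-2508859, AURKA (gene 6790) lies on the reverse strand at chr20:54944445-54967393, PLK1 (gene 5347) is at chr16:23690093-23701688, KIF20A (gene 10112) at chr5:137514417-137523404 and KIF23 (gene 9493) at chr15:69706585-69740766.

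Among the kinases, AURKA fell the most in X453_2. AURKA, which matures centrosomes and builds the bipolar spindle, was at 31.8, 33.6 and 32.1 FPKM in X453_NC, 29.5, 30.5 and 30.6 in X453_1, and 20.3, 19.8 and 19.5 in X453_2. All X453_2 libraries were below the others, and X453_1 lay just under control without overlap. The log2 fold change was -0.68 in X453_2 (SE 0.033, limma adjusted P = 9.17e-08) and -0.10 in X453_1, and the difference between the groups was -0.58 (adjusted P = 3.93e-06). PLK1, the Polo kinase of centrosomes, kinetochores and the cleavage plane, was at 49.5, 46.8 and 49.4 FPKM in X453_NC, 50.6, 54.5 and 51.9 in X453_1, and 35.6, 37.1 and 38.3 in X453_2. It sat slightly above control in X453_1 (log2 fold change 0.10) and below it in X453_2 (-0.38, limma adjusted P = 1.51e-05), a difference of -0.49 between the groups (adjusted P = 2.83e-05). The call of PLK1 against control was close to the limit and was lost without X453_2 replicate r0 (-0.36), X453_NC replicate r0 (-0.37) or X453_NC replicate r2 (-0.37).

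TTK (MPS1), which signals from unattached kinetochores, was at 20.7 ± 0.995 FPKM in X453_NC, 19.9 ± 0.377 in X453_1 and 15.6 ± 0.501 in X453_2 (SD, n = 3), a log2 fold change of -0.39 in X453_2 (limma adjusted P = 1.84e-05). Without X453_2 replicate r1 or X453_NC replicate r1 it was -0.36 and no longer called. BUB1B (BubR1), a subunit of the mitotic checkpoint complex, was at 19.9, 19.8 and 19.0 FPKM in X453_NC, 22.0, 20.6 and 22.4 in X453_1, and 16.0, 15.7 and 15.5 in X453_2. It was called only between the knockdown groups (log2 fold change -0.44, limma adjusted P = 4.4e-05), with control between them. BUB1, its partner at the kinetochore, had the same order with a smaller difference (-0.32). The other kinases were not called in any comparison. CDK1 was above control in every library of X453_1 (150 to 160 FPKM) and X453_2 (143 to 149 FPKM, against 127 to 133), with log2 fold changes of 0.26 and 0.18. NEK2, which separates centrosomes, was at 0.12 and 0.11, and AURKB, the catalytic subunit of the passenger complex, at -0.011 and -0.11.

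**Figure D4:**
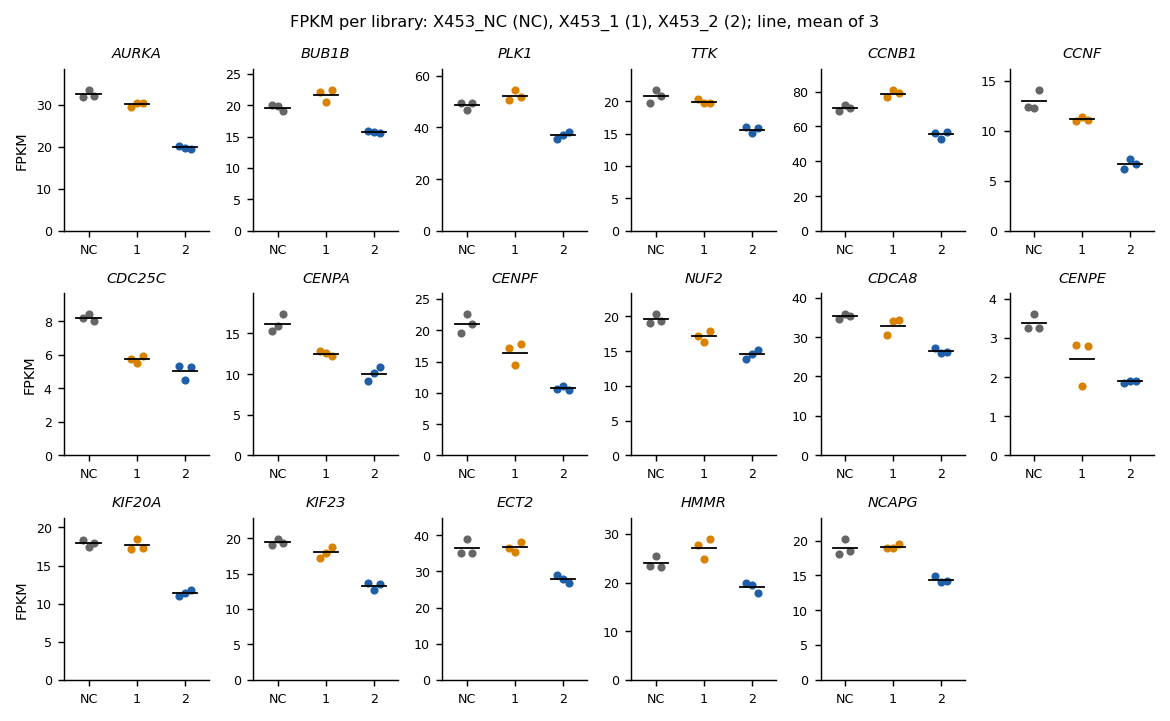
FPKM (vertical axis, from 0) in each library of X453_NC (grey), X453_1 (orange) and X453_2 (blue) for the 17 members called in any comparison; lines are means of 3 libraries. The 3 X453_2 libraries lie below all X453_NC libraries in each panel, but the panels were picked by calls in these libraries. X453_2 and X453_NC did not overlap for 73.0% of all tested genes.

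The cyclins and their phosphatase gave the second largest fall and the call common to the 2 knockdown groups. Cyclin F (CCNF), the substrate receptor of an SCF ubiquitin ligase, was at 12.4, 12.3 and 14.1 FPKM in X453_NC, 11.0, 11.4 and 11.1 in X453_1, and 6.18, 7.15 and 6.68 in X453_2. The X453_2 mean was 0.515 of the control mean, with a log2 fold change of -0.86 (SE 0.060, limma adjusted P = 9.9e-07), and X453_1 was at -0.19, the difference being -0.67 (adjusted P = 4.52e-05). CDC25C, which removes the inhibitory phosphates of CDK1, was at 8.22, 8.42 and 8.0 FPKM in X453_NC, 5.77, 5.49 and 5.96 in X453_1, and 5.32, 4.51 and 5.30 in X453_2. It was the one member called in both knockdown groups (log2 fold change -0.45, limma adjusted P = 9.22e-05 in X453_1, and -0.61, adjusted P = 8.75e-06 in X453_2), and the groups were not called as different (-0.16, adjusted P = 0.0504). With the length correction its X453_1 value was -0.37, under the limit.

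Cyclin B1 (CCNB1), the activating partner of CDK1, was at 68.9, 72.2 and 70.4 FPKM in X453_NC, 76.6, 80.9 and 78.9 in X453_1, and 56.2, 52.8 and 57.0 in X453_2. The knockdown groups lay on opposite sides of control with no overlap (0.16 and -0.34), neither was called against it, and the difference between them was -0.50 (limma adjusted P = 1.6e-05). CCNB2 and CCNA2 were at -0.27 and -0.22 in X453_2 and at -0.026 and -0.0026 in X453_1, not called in any comparison.

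At the kinetochore, the large coiled-coil protein CENPF had the largest fall of the whole set. It was at 19.5, 22.5 and 21.0 FPKM in X453_NC, 17.1, 14.4 and 17.8 in X453_1, and 10.5, 11.02 and 10.5 in X453_2. The 3 groups did not overlap, with X453_1 in between. The log2 fold change was -0.91 in X453_2 (SE 0.074, limma adjusted P = 2.64e-06) and -0.34 in X453_1, below the fold limit, and the difference was -0.57 (adjusted P = 0.000328). CENPA, the histone H3 variant that marks centromeres, gave the same order at 15.3, 15.9 and 17.3 FPKM in X453_NC, 12.8, 12.5 and 12.2 in X453_1, and 9.10, 10.1 and 10.8 in X453_2. It was called lower in X453_2 (-0.64, limma adjusted P = 9e-06), had a log2 fold change of -0.35 in X453_1 and was not called between the knockdown groups (-0.30). CENPF in X453_1 passed the limit after GC correction (-0.41), after length correction (-0.40), and without X453_1 replicate r2 (-0.39) or X453_NC replicate r0 (-0.39). CENPA in X453_1 passed it after GC correction (-0.41) and without X453_NC replicate r0 (-0.38).

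The 4 subunits of the NDC80 complex, which binds microtubules, had values on both sides of control. NUF2 was called lower in X453_2 (19.6 ± 0.649 FPKM in X453_NC, 17.1 ± 0.795 in X453_1 and 14.6 ± 0.671 in X453_2, SD, n = 3; log2 fold change -0.40, limma adjusted P = 3e-05), a call that was lost without X453_2 replicate r0 (-0.37). NDC80 was at -0.30 in X453_2 and -0.069 in X453_1. SPC24 was at -0.31 in X453_1 and -0.16 in X453_2, and SPC25 at 0.22 and 0.078, with no call for any of these. ZWINT, which links the RZZ complex to the outer kinetochore, was at 53.0, 52.2 and 47.5 FPKM in X453_NC, 46.5, 49.1 and 48.2 in X453_1, and 60.7, 59.8 and 62.7 in X453_2. Its X453_2 libraries were above all others, and the difference from X453_1 of 0.34 was the largest positive one of the set, under the limit as deposited and past it after median-ratio scaling (0.45) and GC correction (0.42).

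None of the 6 genes of the checkpoint, the APC/C and separase was called in any comparison. UBE2C was at 216 ± 3.09 FPKM in X453_1, 192 ± 3.11 in X453_2 and 192 ± 7.38 in X453_NC (SD, n = 3). CDC20, the activator that brings substrates to the APC/C, was at 0.24 in X453_1 and -0.071 in X453_2, and separase (ESPL1) at 0.069 and -0.26. MAD2L1, the checkpoint protein that holds CDC20, was above control in every X453_2 library (33.6 to 35.3 against 29.02 to 30.6 FPKM, log2 fold change 0.23). PTTG1 was at 0.037 in X453_1 and -0.050 in X453_2, and BUB3, which recruits checkpoint kinases, at -0.11 and -0.097. The class median in X453_2 was -0.060 as deposited and 0.045 after median-ratio scaling, so its sign depended on the scaling. Of the chromosomal passenger subunits, CDCA8 (borealin) was called lower in X453_2, at 34.7, 35.8 and 35.4 FPKM in X453_NC, 30.4, 34.1 and 34.3 in X453_1, and 27.3, 25.9 and 26.2 in X453_2 (-0.40, limma adjusted P = 3.03e-05). The other subunits, BIRC5 (survivin) and INCENP, were at -0.28 and -0.19 in X453_2 and -0.082 and 0.051 in X453_1.

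The kinesin motors were the class with the lowest median in X453_2 (-0.52), and 3 of 5 were called lower there. KIF20A (MKLP2), which carries the passenger complex to the midzone, was at 18.3, 17.5 and 18.0 FPKM in X453_NC, 17.2, 18.5 and 17.4 in X453_1, and 11.02, 11.4 and 11.8 in X453_2. X453_1 overlapped control (log2 fold change -0.019), whereas X453_2 was at -0.61 (SE 0.040, limma adjusted P = 7.14e-07) and differed from X453_1 by -0.59 (adjusted P = 1.03e-05). KIF23 (MKLP1), the motor of centralspindlin, was at 19.1, 19.9 and 19.2 FPKM in X453_NC, 17.3, 17.9 and 18.8 in X453_1, and 13.6, 12.7 and 13.5 in X453_2 (-0.52, limma adjusted P = 2.83e-06). CENPE, which moves chromosomes to the metaphase plate, was at 3.26, 3.6 and 3.26 FPKM in X453_NC, 2.82, 1.78 and 2.80 in X453_1, and 1.84, 1.91 and 1.91 in X453_2 (-0.60, limma adjusted P = 0.000728). In X453_1 CENPE was at -0.35 (limma adjusted P = 0.0179) and rested on the low r1 library, without which it was -0.20. Without X453_1 replicate r0 or r2 it passed the limit (-0.43 and -0.42), as it did with a pseudocount of 0.1 FPKM (-0.46), after GC correction (-0.44) and after length correction (-0.39). KIF11 (Eg5), which pushes spindle poles apart, was at -0.36 in X453_2, just inside the limit and past it without X453_2 replicate r0 (-0.38) or X453_NC replicate r0 (-0.38). The depolymerase KIF2C was at -0.087.

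None of the 6 spindle and cytokinesis proteins was called in X453_1, where their log2 fold changes ran from 0.015 (ECT2) to 0.31 (median 0.21). There 3 of 6 had no overlap with control, against 70.0% of all tested genes. After GC correction the median was 0.13 and 2 of 6 were below 0. ANLN (anillin), a scaffold of the contractile ring, was at 65.5, 71.0 and 67.0 FPKM in X453_NC, 83.6, 83.4 and 86.5 in X453_1, and 82.9, 78.2 and 76.4 in X453_2. Its log2 fold changes were 0.31, the highest of the set in X453_1, and 0.22. NUSAP1, which bundles microtubules near chromosomes, was at 0.25 and 0.26, the latter called higher after length correction (0.39), and the AURKA activator TPX2 at 0.24 and 0.035. The members called between the knockdown groups were HMMR and ECT2. HMMR, a spindle pole protein, was at 23.4, 25.4 and 23.2 FPKM in X453_NC, 27.7, 24.9 and 28.97 in X453_1, and 19.95, 19.4 and 17.9 in X453_2 (difference -0.49, limma adjusted P = 0.0003). ECT2, the exchange factor that activates RhoA for furrowing, was at 36.4 ± 2.29 FPKM in X453_NC, 36.7 ± 1.45 in X453_1 and 27.9 ± 1.14 in X453_2 (SD, n = 3), a difference of -0.38 (limma adjusted P = 0.000362) that was no longer called without X453_1 replicate r2 or X453_2 replicate r2. Against control ECT2 was at -0.37 in X453_2, and past the limit with a pseudocount of 0.1 FPKM (-0.38) and without X453_2 replicate r0 (-0.40), X453_NC replicate r0 (-0.39) or X453_NC replicate r2 (-0.39). PRC1, which crosslinks the midzone, was at 0.056 and -0.14. In X453_2 the class median was -0.055 as deposited and 0.050 after median-ratio scaling.

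Condensin I had no call against control. NCAPG was lower in X453_2 than in X453_1 (18.9, 19.0 and 19.5 FPKM in X453_1, 14.9, 14.01 and 14.2 in X453_2, and 18.0, 20.3 and 18.5 in X453_NC), a difference of -0.39 (limma adjusted P = 0.000201) that was lost without X453_1 replicate r2 or X453_2 replicate r1 (both -0.37). The ring subunits SMC2 and SMC4 were at 0.30 and 0.0022 in X453_1 and at 0.14 and -0.23 in X453_2. NCAPD2 was at 0.20 and -0.096, and the kleisin NCAPH at 0.18 and 0.0018. All 5 subunits and TOP2A, which untangles sister DNA, were lower in X453_2 than in X453_1 in value (log2 fold change -0.39 to -0.16). For each of them the libraries of the 2 groups did not overlap, as for 53.7% of all tested genes. TOP2A itself was at 130, 143 and 139 FPKM in X453_NC, 126, 125 and 130 in X453_1, and 110, 107 and 104 in X453_2, with log2 fold changes of -0.11 and -0.36. In X453_2 against control, TOP2A passed the limit without X453_NC replicate r0 (-0.40), and NCAPG (-0.37) did so with a pseudocount of 0.1 FPKM (-0.39) and without X453_2 replicate r0 (-0.40), X453_NC replicate r0 (-0.40) or X453_NC replicate r2 (-0.39).

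By class, the medians in X453_2 ran from -0.52 (kinesin motors) through -0.34 (cyclins and CDC25C), -0.30 (kinetochore and centromere), -0.28 (chromosomal passenger subunits), -0.23 (mitotic kinases) and -0.16 (condensin I and topoisomerase) to -0.060 and -0.055 for the checkpoint and spindle classes. The differences between classes were not tested. The calls lower in X453_2 were 3 of 8 kinases, 2 of 5 cyclins and CDC25C, 3 of 7 kinetochore genes, 3 of 5 motors, 1 of 3 passenger subunits and 0 of 6 in each of the other 3 classes, where 23.0% of all tested genes were called lower. With 3 to 8 genes in a class, several of these counts lie near that share. In X453_1 the class medians lay between -0.18 (kinetochore and centromere) and 0.21 (spindle and cytokinesis proteins). The geometric mean of all 46 members was 31.4 to 32.5 FPKM in X453_1, 26.5 to 27.0 in X453_2 and 31.3 to 32.5 in X453_NC. After median-ratio scaling it was 27.7 to 28.4 in X453_2 against 30.7 to 31.3 in X453_NC, still without overlap.

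**Figure D5:**
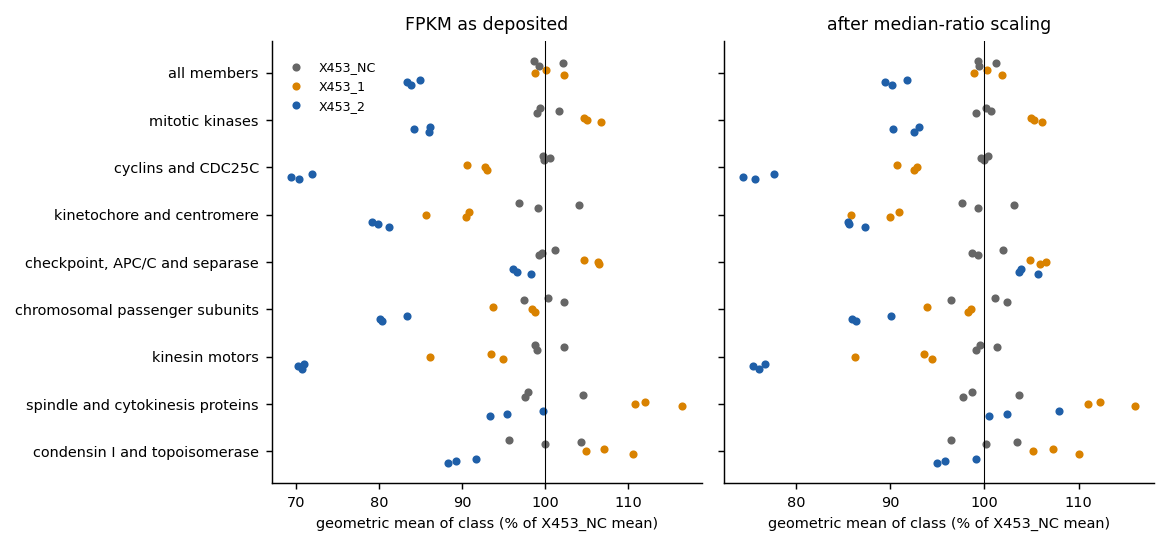
Geometric mean FPKM of all members and of each class in every library, as a percentage of the X453_NC mean (horizontal axis), from FPKM as deposited (left) and after median-ratio scaling (right); each point is 1 library of X453_NC (grey), X453_1 (orange) or X453_2 (blue). Cyclins and kinesin motors lie furthest below 100% in X453_2, and the checkpoint class of X453_2 moves from below to above 100% with the scaling.

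Features read from sequence were set beside the calls. A CHR match was present for 8 of the 10 members called lower in X453_2 that had a promoter window and for 21 of the 30 others, and for 8 of 10 and 21 of 30 in the comparison of the knockdown groups. The members had a median GC content of 43.2% over their longest transcript, against 48.8% for the 11190 tested genes with a value, and a median length of 3156 bases against 3543. Members called lower in X453_2 against control had a median GC of 47.1%, against 42.9% for those not called. In the comparison of the knockdown groups the order was reversed, at 43.2% and 44.3%. Median lengths of members called lower and not called were 2804 and 3403 bases against control. Between the knockdown groups they were 3742 and 2999 bases. The seed of a siRNA guide strand, its bases 2 to 8, can pair with other transcripts. For the siRNA numbered 1 in the study's list the seed is GAAACCU and its site AGGTTTC, present in the longest transcript of 8 of 46 members (17.4%) and 22.8% of tested genes. For the siRNA numbered 2 they are UAUUAUU and AATAATA, present in 12 members (26.1%) and 27.6% of tested genes. In X453_2 the members with the second site had a median log2 fold change of -0.28 and those without it -0.20. All tested genes were there at -0.080 with it and -0.12 without it. For X453_2 against X453_1, members were at -0.26 with it and -0.23 without it, and all tested genes at -0.13 and -0.069. Against control in X453_1, members were at 0.009 with the second site and 0.026 without it, and all tested genes at 0.058 and -0.029. In X453_1 the members with the first site were at 0.11 and those without it at 0.0090. All tested genes were there at 0.012 with it and -0.005 without it. The 8 members with the first site were also at 0.11 in X453_2, the group taken to have the other siRNA. Members without the first site were at -0.28 in X453_2, and all tested genes at -0.080 with it and -0.11 without it. Any part of seed pairing in these values was not tested.

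Beyond the 46, lists of other mitotic genes (cohesin, condensin II, further kinetochore, kinesin and spindle genes, the APC/C, regulators of mitotic entry and exit, and the FOXM1, B-MYB and DREAM factors) held 118 genes, of which 115 were tested. In X453_1 10 (8.70%) were called higher and 10 (8.70%) lower, against 11.0% and 15.5% of all tested genes. In X453_2 8 (6.96%) were called higher and 25 (21.7%) lower, against 10.9% and 23.0%, so the lower share was near that of all genes. Between the knockdown groups 0 were higher and 16 (13.9%) lower in X453_2, against 2.06% and 5.32%. In either direction 9 of 115 were called there after median-ratio scaling, 5 of 114 after GC correction and 6 of 115 after length correction. All tested genes were then called at 6.23%, 5.07% and 5.12%, so with the corrections the share of the lists was near that of all genes. The median log2 fold change was 0.046 in X453_1, -0.10 in X453_2 and -0.13 between them. The other kinesins and spindle proteins had 9 of 23 called lower in X453_2 and 7 of 23 lower than in X453_1, while the inner kinetochore genes had 2 of 13 and 0 of 13, where 23.0% and 5.32% of all tested genes were called lower. The difference between these lists was not tested. Both comparisons with control share its libraries, and the share of all tested genes called in both groups was not counted. Without that share beside them, 6 of the 115 genes were called higher and 9 lower in both knockdown groups.

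The 3 with the largest rise by the mean of both groups were the CDK subunit CKS2 (0.61 in X453_1 and 0.70 in X453_2), the phosphatase CDC25A (0.60 and 0.65) and PPP2R2A, a regulatory subunit of the PP2A phosphatase (0.63 and 0.61). The 3 with the largest fall were PKMYT1, the kinase that inhibits CDK1 (-0.77 and -0.89), the transcription factor FOXM1 (-0.69 and -0.65) and the inner kinetochore protein CENPT (-0.56 and -0.69). These values are from FPKM as deposited, and scaled or corrected values of these genes were not reported. The GC content was 66.2%, 55.6% and 59% for the 3 falls and 41.4%, 51.7% and 38.6% for the 3 rises. The median of tested genes was 48.8%. FOXM1, which activates many G2 and M genes, was at 24.7, 25.2 and 25.3 FPKM in X453_NC, 14.6, 15.7 and 15.1 in X453_1, and 16.8, 14.7 and 15.6 in X453_2 (limma adjusted P = 1.5e-06 and 1.42e-06). FOXM1 fell in both groups and was not called between them (log2 fold change 0.046, limma adjusted P = 0.455).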

How the data were processed

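RNA sequencing libraries (BGISEQ-500) of 3 groups of 3 were analysed. The authors deposited 1 table of FPKM per gene and library, rounded to 2 decimals; the submitters' processing notes name GRCh37.p13 and Bowtie2 version 2, and the counting tool is not given in the sources used here. The FPKM are given in 2 equal sets, 4 lines without values were left out, and the authors' own ratio, P and Q columns were not used. Log2(FPKM + 1) of the 12884 genes averaging 1 FPKM or more was fitted with limma 3.58.1 (lmFit, eBayes with trend; R 4.3.3) with group as the only factor and all 9 libraries, and P values were adjusted by Benjamini-Hochberg over these genes. Calls needed a fold of 1.3 and an adjusted P of 0.05. Fold changes on this scale understate the change of low genes. Counts were not rebuilt: depth was estimated from the steps of low FPKM values, which lay 0.075 to 0.094 of a fragment from whole numbers on average. Classes were described by counts and medians. Every member was to be named, and of the wider lists the 3 largest rises and 3 largest falls called in both knockdown groups. The members and lists were chosen with earlier results of these data known. Promoters came from RefSeq (GRCh38.p14), transcripts from GENCODE, and siRNA seeds from the study's list. The fit was tested on simulated data. Alternatives covered the pseudocount, filter, libraries, replicate label, scaling, call rule, variance model, GC content and length. Python 3.11.15 (matplotlib 3.10.9, pandas 2.3.3 and numpy 2.4.6) was used for tables and figures. A further marker fixed for the line is not reported here.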

Additional observations from a re-analysis of the deposited data

Results flagged for a closer look

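Against 5.32% of all tested genes, 11 of 46 members were called lower in X453_2 than in X453_1 by the direct limma test. Their log2 fold changes of X453_2 against X453_1 were -0.67 for CCNF, -0.59 for KIF20A, -0.58 for AURKA, -0.57 for CENPF, -0.50 for CCNB1, -0.49 for PLK1, -0.49 for HMMR, -0.44 for BUB1B, -0.41 for KIF23, -0.39 for NCAPG and -0.38 for ECT2. In each of the 11 the 3 libraries of X453_2 were below the 3 of X453_1. The genes were picked by this same comparison, so this adds no support. The 2 groups did not overlap for 53.7% of all tested genes. Of the 11, 6 stayed called under each of median-ratio scaling, GC correction and length correction: CCNF, KIF20A, AURKA, CENPF, CCNB1 and PLK1. All tested genes were then called lower at 2.37%, 2.35% and 2.56%. Groups of 3 libraries were too small for a test of single outlying libraries.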

How the results depend on the processing

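No member changed direction while called under any alternative run. The direction of the calls of the wider list was not compared between runs. Called members in X453_1 numbered 1 as reported, 2 with a pseudocount of 0.1 and 26 with no fold limit. They numbered 0 with a fold limit of 1.5, 4 with GC correction, 2 with length correction, and 1 to 3 leaving out 1 library. Of all tested genes, 26.5% were called in X453_1 as reported, 31.6% with the pseudocount of 0.1, and 22.6% and 26.5% with the corrections. In X453_2 they numbered 12 as reported, 39 with no fold limit, 7 with a limit of 1.5, and 11 to 15 leaving out 1 library; between the knockdown groups they numbered 11 as reported, 35 with no fold limit, 2 with a limit of 1.5, 7 with GC correction, 7 with length correction, and 9 to 12 leaving out 1 library. The members' median log2 fold change in X453_1 was 0.015 as reported, -0.039 with GC correction, 0.046 with length correction and -0.0029 to 0.050 leaving out 1 library. In X453_2 it was -0.14 with median-ratio scaling, -0.18 with GC correction, -0.14 with length correction and -0.26 to -0.22 leaving out 1 library; between the knockdown groups these were -0.14, -0.12, -0.16 and -0.26 to -0.21. Wider-list calls went to 73 of 115 (X453_1), 76 (X453_2) and 63 (between groups) with no fold limit. All tested genes were then called at 64.4%, 70.8% and 44%. With a limit of 1.5 the list had 6, 17 and 1 calls, against 12.1%, 17.5% and 1.66% of all tested genes. Between groups the list had 9 calls with median-ratio scaling, 5 with GC correction and 6 with length correction. The shares of all tested genes were then 6.23%, 5.07% and 5.12%. Scaling with GC correction together, chosen after seeing the data, gave 4 members in X453_1 (median -0.039) and a median of -0.17 in X453_2. Between groups it gave 6 members lower and 1 higher (median -0.12) and 5 wider-list genes. Of all tested genes it called 22.4% in X453_1 and 5.28% between groups. The causes were not tested. Same-suffix libraries did not deviate together (correlations -0.24 to 0.10), so the suffixes were not taken as pairs; with the suffix as a replicate block 1, 12 and 11 members were called, as without it. Counting error was largest for CDC25C, SPC25, CENPA and CENPE (5.2% to 6.4% in the lowest library).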
